A study of Homo sapiens with 9 samples.

Results

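Ribosome making in MDA-MB-231 cells was followed through 60 genes, taken as a fixed list of RNA polymerase I subunits, its initiation factors and the proteins that modify, cut and fold ribosomal RNA. They were found among the 58395 gene identifiers of the deposited counts by matching Ensembl identifiers to GENCODE symbols. The rule that lists them uses no measured value, but the list was drawn up with earlier results of these data known, so the shares set beside those of all genes describe the list. All 60 passed the low-count filter. MDA-MB-231 is a human triple-negative breast cancer line, and its RNA was taken 96 h after transfection, with no other treatment in the labels. Cells received a non-targeting siRNA (siNC), a first siRNA against ZIP7 (siZIP7_1) or a second one (siZIP7_2), with 3 libraries for each. ZIP7, encoded by SLC39A7, is a zinc transporter that releases zinc from the endoplasmic reticulum into the cytosol. The knockdown was transient and in 1 cell line, RNA and not protein was measured, and the labels do not say whether the libraries of a group came from separate cultures, so p-values measure only the spread between these libraries, which may be technical.

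A ribosome begins as one long precursor RNA that RNA polymerase I copies from the ribosomal DNA in the nucleolus. The factor UBTF holds that DNA open and RRN3 brings the polymerase to it. Small nucleolar ribonucleoproteins (snoRNPs) then mark the precursor with methyl groups (box C/D) or turn uridines into pseudouridines (box H/ACA). The small subunit processome, a very large assembly, folds and cuts the part that becomes the small subunit, while a separate set of factors, PeBoW among them, builds the large subunit. Late factors finish the small subunit in the cytoplasm. In growing cancer cells these genes are usually expressed at high levels, and many are known targets of MYC.

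Reads on genes numbered 24153785 to 30454419 in a library, and 3 counts, the floor used for detection, were 0.094 to 0.129 CPM, the number of reads of a gene put on one scale for all libraries. Such floors cover counting error only. CPM were normalised by TMM and give a gene's share of the library's RNA, so that less RNA per cell, or fewer cells with RNA of a given kind, cannot be told apart from a lower share. SLC39A7 stood at 321, 343 and 322 CPM with siNC, at 35.4, 32.9 and 38.6 with siZIP7_1, and 20.5, 19.5 and 17.6 with siZIP7_2. Its log2 fold change was -3.20 ± 0.058 (SE) with siZIP7_1 and -4.10 ± 0.063 with siZIP7_2, and the target was lower in every knockdown library and lower with the second siRNA than with the first. Markers of a triple-negative, mesenchymal line were found in the siNC libraries, with VIM at 5333 to 5688 CPM, CD44 at 787 to 861 and EGFR at 649 to 688, while ESR1 had 2 to 3 reads and PGR 0 reads. Of the other markers expected to be low, CDH1 had 10 to 17 reads and EPCAM 150 to 194 reads (6.35 to 6.91 CPM), both over the floor. Apart from PGR, which did not pass the low-count filter, these markers moved with the siRNAs as well. ESR1 had 6 to 9 reads with siZIP7_1 and 12 to 15 with siZIP7_2. VIM was at 2618 to 2808 CPM with siZIP7_1 and 2816 to 2937 with siZIP7_2, CD44 at 438 to 502 and 1727 to 1826, EGFR at 555 to 580 and 856 to 933, CDH1 at 3.98 to 4.52 and 0.79 to 1.28, and EPCAM at 8.96 to 10.3 and 3.8 to 4.84, and their part in the changes of the 60 genes was not tested.

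Promoter sequence was available for 51 of the 60 genes in the RefSeq promoter windows (GRCh38.p14; 250 bases before to 50 after each start). The E-box CACGTG, the same on both strands and the site that MYC and related proteins recognise, lay in a window of 20 of the 51 (39.2%), against 1727 of 15843 protein-coding genes (10.9%). The ETS core CCGGAAG, searched on both strands, lay in 21 of the 51 (41.2%), against 16.5% of protein-coding genes. The YY1 core AAGATGGC lay in 3 (5.88%), against 4.66%. The protein-coding genes compared were all those with a window, expressed in these cells or not, whereas the 60 genes all passed the low-count filter. The ETS and YY1 cores can share the letters AAG, so 1 stretch can hold both, and a match describes letters in a window, not binding. The 30 bases around the E-box nearest the start are given, sense strand from 5′ to 3′ with the E-box in capitals. Shown are the 8 genes with one within 30 bases of the start and a log2 fold change of -1 or lower with either siRNA. NOP10, which also had one that near and was not called lower, is shown too. The choice thus rests partly on the change. UTP18, NOP14, LTV1, BYSL, PES1 and MRTO4 also had an E-box that near and fell less. NOP56, UTP15, WDR3, WDR75, DDX10, NOB1 and NOP16 reached -1 with either siRNA and had no E-box in a window.

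FBL, chr19:39846356-39846385, minus strand: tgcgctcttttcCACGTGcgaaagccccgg
UTP4, chr16:69132621-69132650, plus strand: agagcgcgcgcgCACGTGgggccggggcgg
UTP20, chr12:101280083-101280112, plus strand: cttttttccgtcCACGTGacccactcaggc
WDR43, chr2:28894658-28894687, plus strand: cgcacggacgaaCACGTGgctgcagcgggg
NAT10, chr11:34105602-34105631, plus strand: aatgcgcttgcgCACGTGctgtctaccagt
IMP4, chr2:130342900-130342929, plus strand: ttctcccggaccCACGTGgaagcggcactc
RRP9, chr3:51941892-51941921, minus strand: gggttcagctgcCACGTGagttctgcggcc
GNL3, chr3:52686026-52686055, plus strand: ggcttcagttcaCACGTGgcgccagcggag
NOP10, chr15:34343130-34343159, minus strand: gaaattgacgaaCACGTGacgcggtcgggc

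The median log2 fold change of the 20 genes with an E-box was -0.72 with siZIP7_1 and -0.78 with siZIP7_2, and that of the 31 without was -0.43 and -0.64. With the ETS core the medians were -0.40 and -0.63, and without it -0.52 and -0.78. These medians describe the genes and were not tested.

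Most of the 60 genes were lower after either siRNA. With siZIP7_1, 52 were lower, 5 were higher and 3 did not pass an adjusted p of 0.05 (edgeR's quasi-likelihood test, Benjamini-Hochberg over 16761 genes). Over all genes tested, 35.9% were lower and 34.8% higher in that comparison. With siZIP7_2, 55 were lower, 1 was higher and 4 did not pass, against 39.3% lower and 38.5% higher over all genes. The median log2 fold change of the 60 genes was -0.46 with siZIP7_1 and -0.70 with siZIP7_2, or 72.6% and 61.6% of the siNC level, where the medians over all genes were -0.01 and -0.00. Both comparisons use the same siNC libraries, and 49 genes were lower in both, against 20.8% of all genes tested.

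The libraries of a group lay close together. All 3 siZIP7_1 libraries were below all 3 siNC libraries for 51 of the 60 genes, against 36.5% of all genes, and all 3 siZIP7_2 libraries for 54, against 39.9%. Added together, the 60 genes held 0.901% to 0.92% of the reads on genes in the siNC libraries, 0.675% to 0.711% with siZIP7_1 and 0.516% to 0.571% with siZIP7_2, so the groups did not overlap. Changes were moderate in size. Tested against a 1.5-fold change, 22 genes were lower with siZIP7_1, against 13.8% of all genes, and 32 with siZIP7_2, against 18.3%. The log2 fold changes of the 60 genes ranged from -1.21 to 0.69 with siZIP7_1 and from -1.98 to 0.20 with siZIP7_2.

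**Figure D1:**
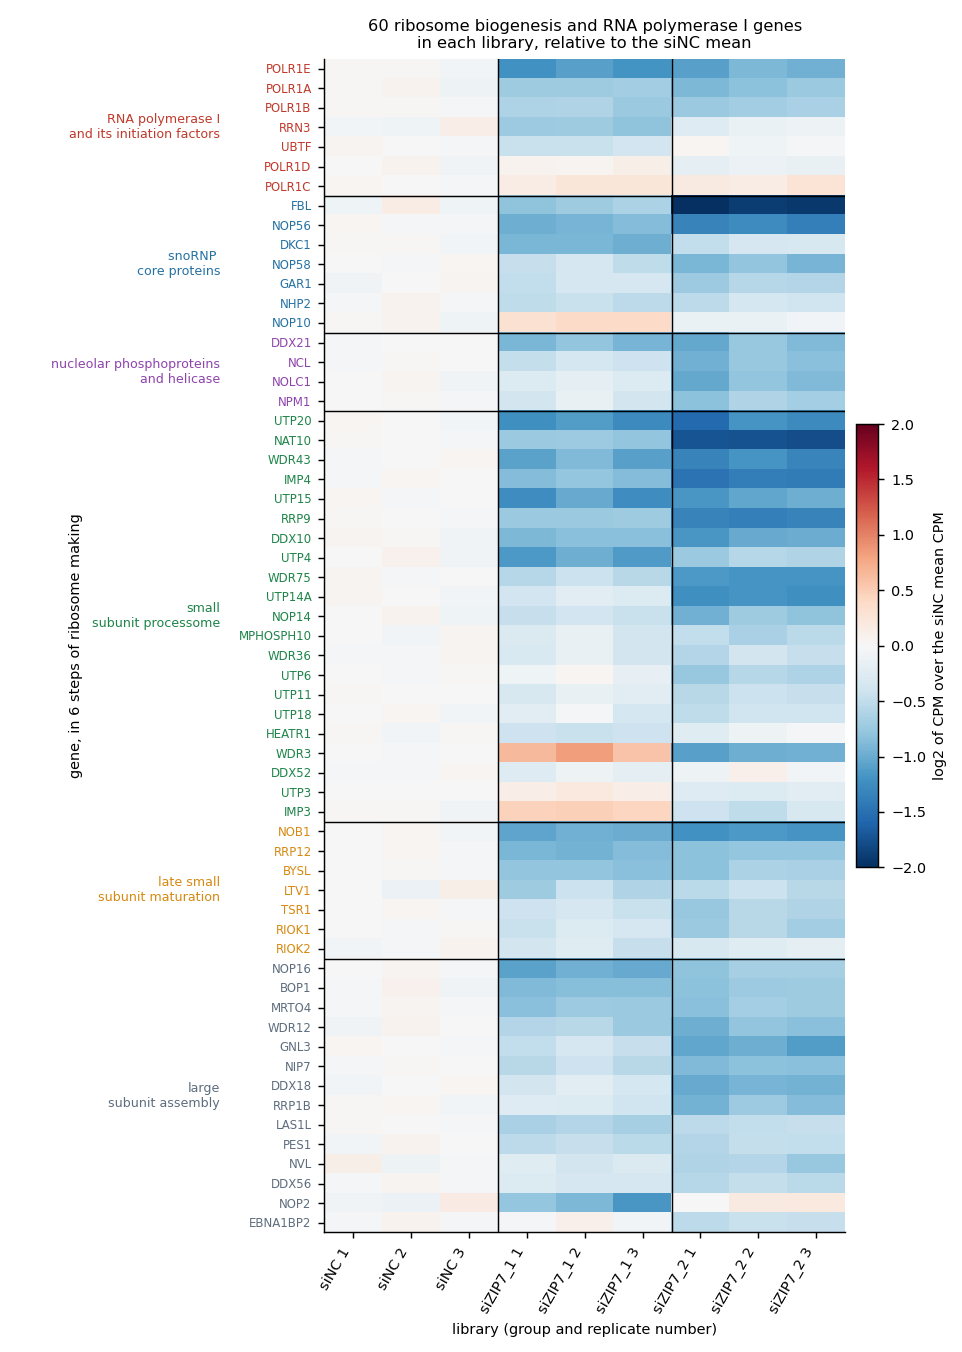
Each row is 1 of the 60 genes, grouped by step and ordered by its mean change, and each column is 1 library; colour gives the log2 of the library's normalised CPM over the siNC mean, from -2.0 (blue) to 2.0 (red). Most rows are blue in all 6 knockdown libraries, while WDR3, IMP3, UTP3 and NOP10 are red in the 3 siZIP7_1 libraries only and POLR1C is red with both siRNAs.

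The first step, RNA polymerase I and its initiation factors, had 7 genes, of which 5 were lower and 1 higher with each siRNA. Its median was -0.65 with siZIP7_1 and -0.16 with siZIP7_2, which are the values of POLR1B and RRN3. POLR1A, the largest catalytic subunit (chr2:86020216-86106155, GRCh38), stood at 296, 304 and 270 CPM in siNC, at 177, 177 and 179 with siZIP7_1, and 155, 164 and 173 with siZIP7_2. Both knockdown groups lay wholly below siNC, at -0.71 ± 0.05 and -0.82 ± 0.05 on the log2 scale. POLR1B, the second catalytic subunit, gave 69.6, 69.5 and 66.4 CPM in siNC, 44.7, 45.1 and 41.1 with siZIP7_1 and 40.9, 42.2 and 43.5 with siZIP7_2. Its knockdown groups overlapped each other and lay below siNC, at -0.65 ± 0.053 and -0.70 ± 0.053. POLR1E, a subunit of the heterodimer that helps initiation, had the lowest mean of this step, with 88.9, 88.3 and 84.3 CPM in siNC against 37.7, 41.2 and 38.0 with siZIP7_1 and 41.3, 47.0 and 44.6 with siZIP7_2. Its changes were -1.16 ± 0.055 and -0.97 ± 0.055, and no knockdown library reached the siNC range.

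The subunits among the 60 genes that RNA polymerase I shares with RNA polymerase III, POLR1C and POLR1D, changed less than POLR1A, POLR1B and POLR1E. POLR1C (chr6:43509702-43562419) was the only one of the 60 called higher with both siRNAs, with 58.0, 56.1 and 55.8 CPM in siNC, 62.6, 66.6 and 67.0 with siZIP7_1 and 64.2, 63.0 and 68.1 with siZIP7_2. The rise was small, 0.21 ± 0.051 and 0.20 ± 0.051 on the log2 scale, with no overlap with siNC, and 18.2% of its exonic length is overlapped by genes on the other strand. POLR1D, the other shared subunit, ranged from 43.1 to 47.8 CPM in siNC, from 47.2 to 49.4 with siZIP7_1 and from 40.1 to 41.6 with siZIP7_2. It did not pass the test with siZIP7_1 (0.09 ± 0.054) and was lower with siZIP7_2 (-0.15 ± 0.055), a call that was lost without siNC replicate 2 (-0.11) or siZIP7_2 replicate 1 (-0.13).

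The initiation factors separated the siRNAs. UBTF gave 168, 161 and 158 CPM in siNC, 119, 119 and 124 with siZIP7_1 and 166, 153 and 159 with siZIP7_2. It was lower with siZIP7_1 (-0.43 ± 0.047), while its siZIP7_2 libraries overlapped siNC (-0.03 ± 0.046, edgeR adjusted p = 0.598). RRN3 gave 36.6, 35.6 and 41.4 CPM in siNC, 22.9, 23.2 and 21.6 with siZIP7_1 and 31.8, 34.4 and 35.5 with siZIP7_2. Its change of -0.75 ± 0.066 with siZIP7_1 compared with -0.16 ± 0.064 with siZIP7_2, and the latter call was lost without siNC replicate 3 (-0.08), siZIP7_2 replicate 1 (-0.11) or siZIP7_2 replicate 2 (-0.16). Between the siRNAs, UBTF was 0.40 ± 0.047 and RRN3 0.59 ± 0.067 higher on the log2 scale with siZIP7_2, both past the test.

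Of the 7 snoRNP core proteins among the 60 genes, 6 were lower with each siRNA, with medians of -0.49 and -0.63. FBL, the methyltransferase of box C/D snoRNPs (chr19:39834458-39846414), had the lowest value of the 60 with siZIP7_2. It stood at 265, 310 and 265 CPM in siNC, at 160, 171 and 180 with siZIP7_1, and 63.8, 74.9 and 73.6 with siZIP7_2. The 3 groups were separate, at 60.9% and 25.3% of siNC, or -0.71 ± 0.06 and -1.98 ± 0.064. NOP56, a scaffold of the same particle, gave 398, 381 and 381 CPM in siNC, 196, 203 and 212 with siZIP7_1 and 153, 161 and 150 with siZIP7_2. Its values were -0.93 ± 0.047 and -1.32 ± 0.047, and those of its partner NOP58 were -0.43 and -0.88. The 3 box C/D proteins among the 60 genes were thus lower with both siRNAs and lower again with the second.

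The 4 box H/ACA proteins moved less alike. DKC1, the pseudouridine synthase, gave 251, 253 and 240 CPM in siNC, 131, 131 and 126 with siZIP7_1 and 177, 197 and 199 with siZIP7_2. Here the first siRNA had the larger effect, -0.94 ± 0.049 against -0.38 ± 0.049. NOP10, a small protein that binds DKC1, gave 52.0, 53.5 and 48.0 CPM in siNC, 63.0, 67.1 and 66.4 with siZIP7_1 and 46.7, 46.7 and 49.1 with siZIP7_2. It was higher with siZIP7_1 (0.36 ± 0.053), and its siZIP7_2 libraries overlapped siNC (-0.11 ± 0.054, edgeR adjusted p = 0.0765, and -0.15 and past the test without siNC replicate 3). GAR1 (-0.38 and -0.63) and NHP2 (-0.49 and -0.42), the remaining proteins of the particle, were lower with both.

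All 4 nucleolar phosphoproteins and helicases were lower with both siRNAs, with medians of -0.35 and -0.87. NCL, nucleolin, which coats nascent precursor RNA, gave 1283, 1333 and 1303 CPM in siNC, 934, 1022 and 980 with siZIP7_1 and 668, 773 and 731 with siZIP7_2. The 3 groups were separate, at -0.42 ± 0.052 and -0.85 ± 0.052. NPM1, nucleophosmin, an abundant chaperone of the nucleolus, gave 453, 458 and 443 CPM in siNC, 348, 407 and 351 with siZIP7_1 and 255, 298 and 282 with siZIP7_2, or -0.29 ± 0.057 and -0.70 ± 0.057. It has 45 annotated pseudogenes by name, and how reads were divided among these copies is uncertain. The helicase DDX21 gave 633, 647 and 649 CPM in siNC, 342, 373 and 337 with siZIP7_1 and 317, 379 and 349 with siZIP7_2. Its 2 knockdown groups overlapped, at -0.88 ± 0.055 each. NOLC1, a chaperone of snoRNPs, was lower by -0.24 and -0.89.

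**Figure D2:**
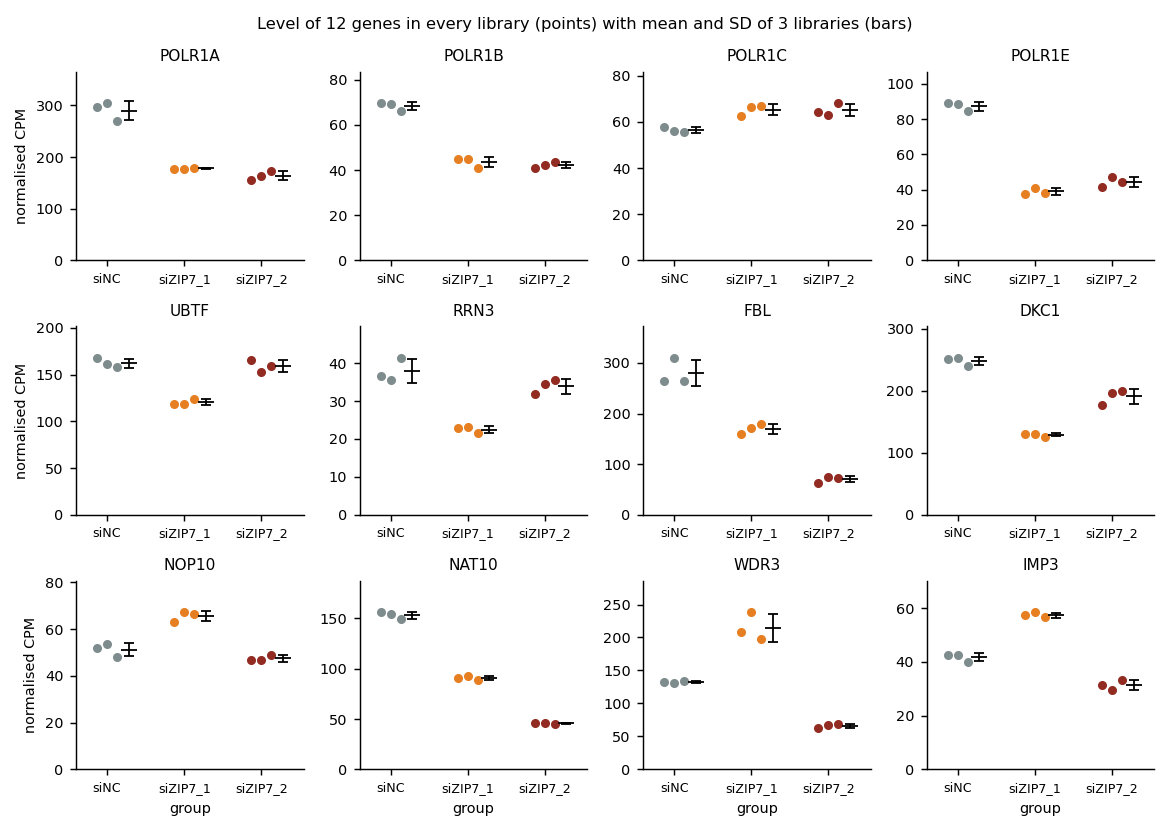
Normalised CPM of 12 genes (linear axes from 0) in each library (points, in replicate order) of siNC, siZIP7_1 and siZIP7_2, with the mean and SD of 3 libraries (bars). POLR1A, POLR1B and POLR1E are below siNC with both siRNAs, UBTF and RRN3 are lowest with siZIP7_1, FBL and NAT10 step down from siNC to siZIP7_1 to siZIP7_2, and WDR3 and IMP3 are above siNC with siZIP7_1 and below it with siZIP7_2.

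The small subunit processome, with 21 genes, had 17 lower and 3 higher with siZIP7_1 and 20 lower and 0 higher with siZIP7_2. Its medians were -0.43 and -0.82, with values from -1.21 to 0.69 with siZIP7_1 and from -1.75 to -0.01 with siZIP7_2. With siZIP7_2 the gene that did not pass was DDX52, a helicase, at -0.01 ± 0.055 (edgeR adjusted p = 0.847). With siZIP7_1 it was UTP6 at -0.07 ± 0.054 (edgeR adjusted p = 0.245), which passed at -0.13 without siZIP7_1 replicate 2.

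UTP20, a long scaffold protein of the processome, had the lowest mean of the step. It gave 119, 116 and 112 CPM in siNC, 49.4, 53.2 and 47.8 with siZIP7_1 and 39.7, 51.0 and 48.2 with siZIP7_2, and its knockdown groups overlapped at -1.21 ± 0.064 and -1.32 ± 0.064. NAT10, which acetylates cytidines in the small subunit rRNA (chr11:34105602-34147670), gave 156, 154 and 149 CPM in siNC, 91.0, 92.4 and 89.0 with siZIP7_1 and 46.2, 45.9 and 44.7 with siZIP7_2. The groups were separate, with -0.75 ± 0.045 and -1.75 ± 0.048. UTP14A, which brings a helicase to the processome, gave 78.8, 75.3 and 73.0 CPM in siNC, 58.2, 65.6 and 62.6 with siZIP7_1 and 32.4, 33.4 and 32.2 with siZIP7_2. It too fell further with the second siRNA, at -0.28 ± 0.052 and -1.21 ± 0.056. IMP4 (-0.84 and -1.42) and RRP9 (-0.73 and -1.34), both bound to the U3 snoRNP, followed the same order, as did the helicase DDX10 (-0.85 and -1.05) and the processome proteins NOP14 (-0.43 and -0.82) and UTP11 (-0.23 and -0.48).

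Members of one complex did not always change together. UTP-A is the first complex to bind the precursor, and its 5 genes on the fixed list were all lower with both siRNAs. Their values ran from -0.43 to -1.16 with siZIP7_1 and from -0.13 to -1.28 with siZIP7_2. UTP15 (-1.16 and -1.05) and WDR43 (-1.01 and -1.28) were low with both, and WDR75 (-0.52 and -1.17) was lower with the second. UTP4 in this complex gave 137, 146 and 132 CPM in siNC, 62.0, 69.9 and 63.1 with siZIP7_1 and 82.2, 93.0 and 90.9 with siZIP7_2, and so was lower with the first siRNA than with the second (-1.09 ± 0.056 and -0.64 ± 0.055). HEATR1, its largest protein, gave 65.2, 61.7 and 64.8 CPM in siNC, 47.7, 47.1 and 48.1 with siZIP7_1 and 54.1, 59.3 and 62.0 with siZIP7_2. Its siZIP7_1 libraries were apart from siNC (-0.43 ± 0.054) while its siZIP7_2 libraries overlapped it (-0.13 ± 0.054). The call with siZIP7_2 was lost without siNC replicate 1 (-0.12) or 3 (-0.11) and without siZIP7_2 replicate 1 (-0.07) or 2 (-0.13).

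UTP-B, the next complex, held the gene on the list with the widest split between the siRNAs. WDR3, one of its scaffold proteins (chr1:117929720-117966542), gave 133, 131 and 134 CPM in siNC, 208, 238 and 197 with siZIP7_1 and 62.7, 67.3 and 68.6 with siZIP7_2. It was higher with the first siRNA (0.69 ± 0.055) and lower with the second (-1.01 ± 0.058), with no overlap among the groups. The other 3 UTP-B genes on the fixed list ranged from -0.27 to -0.07 with siZIP7_1 and from -0.65 to -0.43 with siZIP7_2. UTP18, which was at -0.20 with siZIP7_1, was no longer past the test without siZIP7_1 replicate 3 (-0.13).

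IMP3, of the MPP10 complex that holds the U3 snoRNP to the precursor (chr15:75639085-75648706), gave 42.7, 42.7 and 39.9 CPM in siNC, 57.3, 58.4 and 56.6 with siZIP7_1 and 31.4, 29.5 and 33.4 with siZIP7_2. It was higher with siZIP7_1 (0.46 ± 0.055) and lower with siZIP7_2 (-0.41 ± 0.058), while its partners IMP4 and MPHOSPH10 (-0.27 and -0.56) were lower with both. Genes on the other strand, mainly SNX33, overlap 59.3% of IMP3's exonic length, and the strand setting of the counts is not given in the sources used here. SNX33 itself was higher by 0.62 with siZIP7_1 and by 1.10 with siZIP7_2, and its part in the IMP3 counts was not tested. UTP3, a processome protein with no overlapping gene (chr4:70688479-70690551), split the same way on a smaller scale, with 108, 107 and 108 CPM in siNC, 118, 123 and 118 with siZIP7_1 and 90.1, 89.1 and 92.4 with siZIP7_2, or 0.15 ± 0.045 and -0.25 ± 0.046. WDR3, IMP3 and UTP3 were the only ones of the 60 called in opposite directions by the siRNAs. Besides IMP3 and NOP2, other genes overlap over 20% of the exonic length of NHP2, HEATR1, TSR1, LTV1, NOB1, EBNA1BP2 and NIP7.

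All 7 late small subunit factors were lower with both siRNAs, with medians of -0.58 and -0.66. NOB1, the nuclease that makes the last cut of the small subunit rRNA, gave 100, 102 and 96.2 CPM in siNC, 47.7, 50.9 and 49.9 with siZIP7_1 and 43.1, 45.0 and 43.8 with siZIP7_2, at -1.01 ± 0.05 and -1.18 ± 0.05. The kinases RIOK1 and RIOK2, which act on the same late particle, changed less. RIOK1 gave 62.0, 61.6 and 63.4 CPM in siNC, 45.6, 51.5 and 49.2 with siZIP7_1 and 37.5, 42.5 and 38.4 with siZIP7_2 (-0.35 and -0.66). RIOK2 gave 47.8, 48.4 and 52.1 CPM in siNC, 38.1, 41.8 and 35.7 with siZIP7_1 and 39.6, 41.8 and 43.2 with siZIP7_2 (-0.36 and -0.25), the smallest mean change of the step. RRP12, TSR1, LTV1 and BYSL ranged from -0.91 to -0.40 with siZIP7_1 and from -0.79 to -0.51 with siZIP7_2.

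Of the 14 large subunit assembly factors, 13 were lower with each siRNA, at medians of -0.51 and -0.72. The PeBoW complex, needed to cut the precursor on the large subunit side, was lower in all 3 genes with both. PES1 gave 129, 140 and 133 CPM in siNC, 93.2, 97.5 and 92.4 with siZIP7_1 and 88.9, 95.8 and 95.0 with siZIP7_2. BOP1 gave 229, 247 and 221 CPM in siNC, 126, 129 and 129 with siZIP7_1 and 131, 140 and 141 with siZIP7_2. WDR12 gave 54.9, 61.1 and 57.6 CPM in siNC, 38.6, 39.6 and 34.8 with siZIP7_1 and 29.5, 33.6 and 32.5 with siZIP7_2. Each was apart from siNC in every knockdown library, at -0.51 and -0.53 for PES1, -0.86 and -0.76 for BOP1 and -0.62 and -0.86 for WDR12.

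NOP16, an early large subunit factor, had the lowest mean of this step. It gave 89.2, 93.0 and 87.4 CPM in siNC, 42.6, 46.0 and 44.8 with siZIP7_1 and 51.5, 57.0 and 56.9 with siZIP7_2 (-1.01 ± 0.053 and -0.70 ± 0.053). EBNA1BP2, a nucleolar scaffold of the large subunit, had the highest mean, with 213, 230 and 212 CPM in siNC, 215, 235 and 211 with siZIP7_1 and 151, 160 and 159 with siZIP7_2. Its siZIP7_1 libraries overlapped siNC (0.01 ± 0.05, edgeR adjusted p = 0.847), and it was lower with siZIP7_2 (-0.48 ± 0.05). NOP2, an rRNA methyltransferase, was counted at only 2.21, 2.15 and 2.60 CPM in siNC, 1.35, 1.24 and 1.04 with siZIP7_1 and 2.33, 2.63 and 2.65 with siZIP7_2. It was lower with siZIP7_1 (-0.95 ± 0.18) and did not pass with siZIP7_2 (0.13 ± 0.16), but its level is uncertain, since a gene on the same strand with 0 reads in every library overlaps 54.4% of its exonic length. The remaining 8 genes, GNL3, NIP7, MRTO4, LAS1L, NVL, DDX18, DDX56 and RRP1B, were lower with both, at -0.77 to -0.30 with siZIP7_1 and -1.04 to -0.50 with siZIP7_2.

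**Figure D3:**
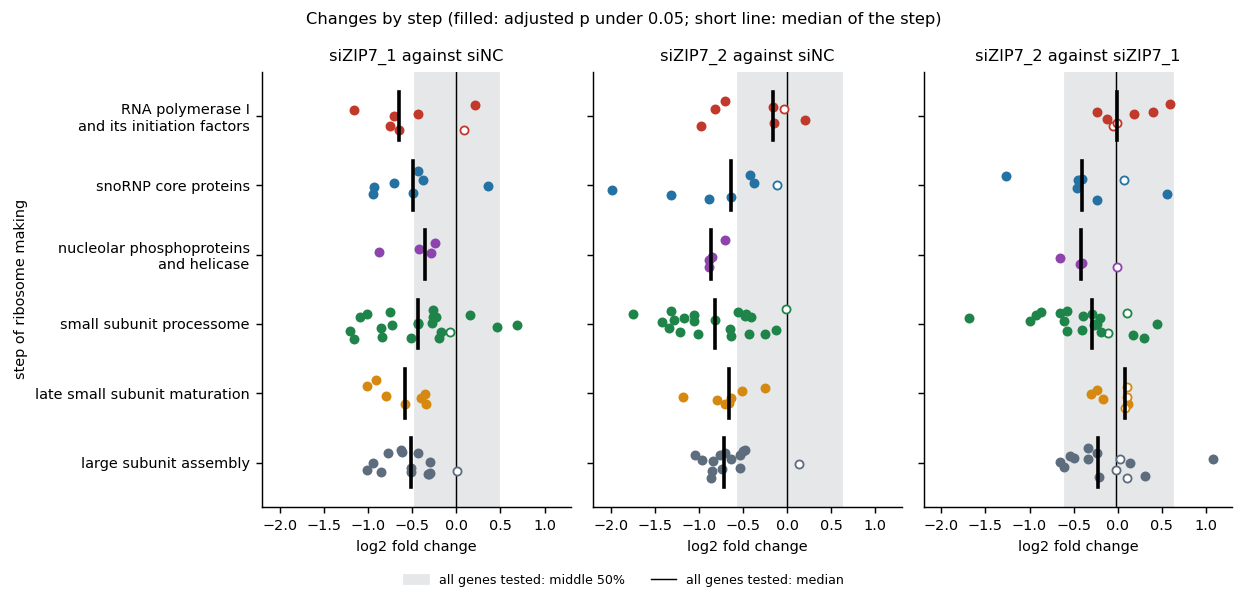
Log2 fold change (horizontal axis) of each gene in the 6 steps for each of the 3 comparisons, with filled points past an adjusted p of 0.05, a short line at the median of the step, and the median and middle 50% of all genes tested as a vertical line and a grey band. All step medians against siNC are below 0. That of RNA polymerase I and its initiation factors is -0.65 with siZIP7_1 and -0.16 with siZIP7_2. With siZIP7_2 the genes of that step are spread widely, from -0.97 (POLR1E) to 0.20 (POLR1C).

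Compared with each other, the siRNAs differed for 48 of the 60 genes. Levels were lower with siZIP7_2 for 37 genes (61.7%), against 40.6% of all genes tested, and higher for 11, against 38.1%. Tested against a 1.5-fold change, 5 of the 60 were lower with siZIP7_2, against 19.8% of all genes, and 1 was higher, against 20.8%. The median difference of the 60 genes was -0.24, beside -0.02 over all genes. Of the 49 genes lower with both siRNAs, 30 were lower again with siZIP7_2, 8 were higher with siZIP7_2 than with siZIP7_1, and 11 did not pass the test between them. The 8 were POLR1E, RRN3, DKC1, UTP4, HEATR1, RRP12, NOP16 and LAS1L. Some calls between the siRNAs, among genes with small differences, were lost when 1 library was left out. RRP12 did not pass without siZIP7_1 replicate 1 or 2 or siZIP7_2 replicate 2 or 3 (0.093 to 0.11), LAS1L without siZIP7_1 replicate 1 (0.117) or 3 (0.115), DDX52 without siZIP7_1 replicate 1 (0.127) or siZIP7_2 replicate 2 (0.108), and POLR1A without siZIP7_1 replicate 3 (-0.12) or siZIP7_2 replicate 1 (-0.08) or 2 (-0.12). In the other direction, BOP1 (0.14) and BYSL (0.17) passed without siZIP7_2 replicate 1, UTP20 (-0.19) without siZIP7_2 replicate 2, RIOK2 (0.17) without siZIP7_1 replicate 2 and UTP15 without siZIP7_1 replicate 2 (0.18) or siZIP7_2 replicate 1 (0.16). The largest differences below 0 were those of WDR3 (-1.69 ± 0.057), FBL (-1.27 ± 0.063), NAT10 (-1.0 ± 0.048), UTP14A (-0.93 ± 0.056) and IMP3 (-0.87 ± 0.056), and the largest above 0 those of NOP2 (1.08 ± 0.18), RRN3 (0.59 ± 0.067), DKC1 (0.56 ± 0.049), UTP4 (0.45 ± 0.057) and UBTF (0.40 ± 0.047). By step, the median difference was -0.01 for RNA polymerase I and its initiation factors, -0.40 for snoRNP proteins, -0.42 for the nucleolar phosphoproteins and helicase, -0.29 for the processome, 0.08 for the late small subunit and -0.22 for the large subunit. SLC39A7 was also lower with siZIP7_2 than with siZIP7_1, by -0.89 ± 0.066, and whether the depth of the knockdown bears on these differences was not tested.

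**Figure D4:**
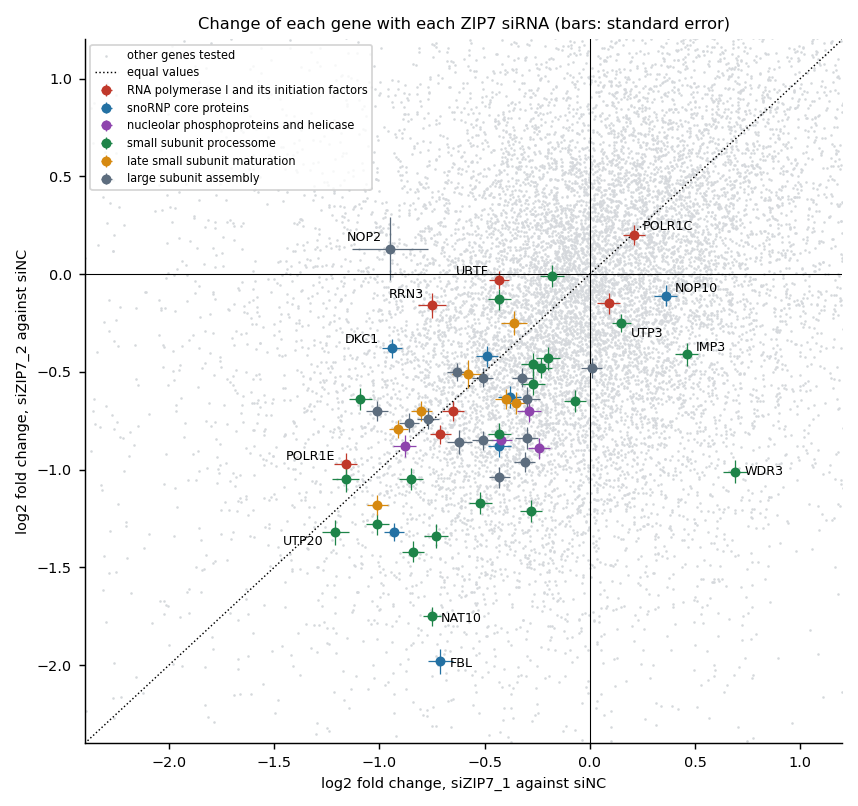
Log2 fold change with siZIP7_1 (horizontal axis) and with siZIP7_2 (vertical axis), both against the same siNC libraries, for the 60 genes coloured by step with their standard errors, over the other genes tested (grey; those outside the axes are not drawn). Most of the 60 lie to the lower left of the zero lines, FBL and NAT10 lie far below the line of equal values, DKC1, RRN3 and NOP2 lie above it, and WDR3, IMP3 and UTP3 lie to their lower right.

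Per kilobase of exon, NCL had the highest siNC level of the 60 at 189 CPM per kb. NOLC1 at 131, FBL at 129, DDX21 at 128 and NPM1 at 118 followed. The length used is that of all annotated exons of a gene together, which can exceed that of the RNA made in these cells. It was 11210 bases for POLR1D and 554 for NOP10, whose siNC means before division were 45.3 and 51.2 CPM. The order of the genes is therefore rough. NOLC1, FBL and DDX21 differed by less than the spread between the FBL libraries. FBL dropped from the third place to 32.6 CPM per kb with siZIP7_2, below NOP10 at 85.7, which was sixth in siNC at 92.3. Apart from NOP2 at 0.495, the lowest siNC levels were those of POLR1D at 4.04, WDR12 at 6.36 and HEATR1 at 7.06 CPM per kb. Small nucleolar RNA genes lie within 8 of the genes on the same strand, among them NCL, NOP56, DKC1 and GNL3. Of these RNAs, 23 could be matched to the counts by symbol. None of the 23 had more than 8 reads in any library, so they could not be compared.

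Most other genes of the pathway were lower too. For the lists below, the shares over all genes tested were 35.9% lower and 34.8% higher with siZIP7_1. With siZIP7_2 they were 39.3% and 38.5%. Of 109 further ribosome biogenesis genes tested, 85 were lower and 10 higher with siZIP7_1 (median -0.38), and 92 were lower and 7 higher with siZIP7_2 (median -0.59). Of 85 cytosolic ribosomal protein genes, paralogs included, 75 were lower and 3 higher with siZIP7_1 (median -0.41), and 80 were lower and 1 higher with siZIP7_2 (median -0.84). The 78 mitochondrial ribosomal protein genes had 54 lower and 4 higher, and 61 lower and 9 higher, at medians of -0.28 and -0.52. RNA polymerase III, which makes the small 5S ribosomal RNA and transfer RNAs, had 8 of its 11 own subunits lower and 2 higher with each siRNA, at medians of -0.51 and -0.53. Of the 11, 6 were lower with both siRNAs and 2 were called in opposite directions. RNA polymerase II, which makes messenger RNA, had 2 of its 7 own subunits lower and 0 higher with siZIP7_1. With siZIP7_2, 3 were lower and 2 higher, and both medians were -0.12. Its lower shares were 28.6% and 42.9%, beside 35.9% and 39.3% of all genes tested. Of the 5 subunits common to all 3 polymerases, 3 were lower with each siRNA and 1 was higher with siZIP7_1. Only 1 of the 5 was lower with both siRNAs, and 1 was called in opposite directions.

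**Figure D5:**
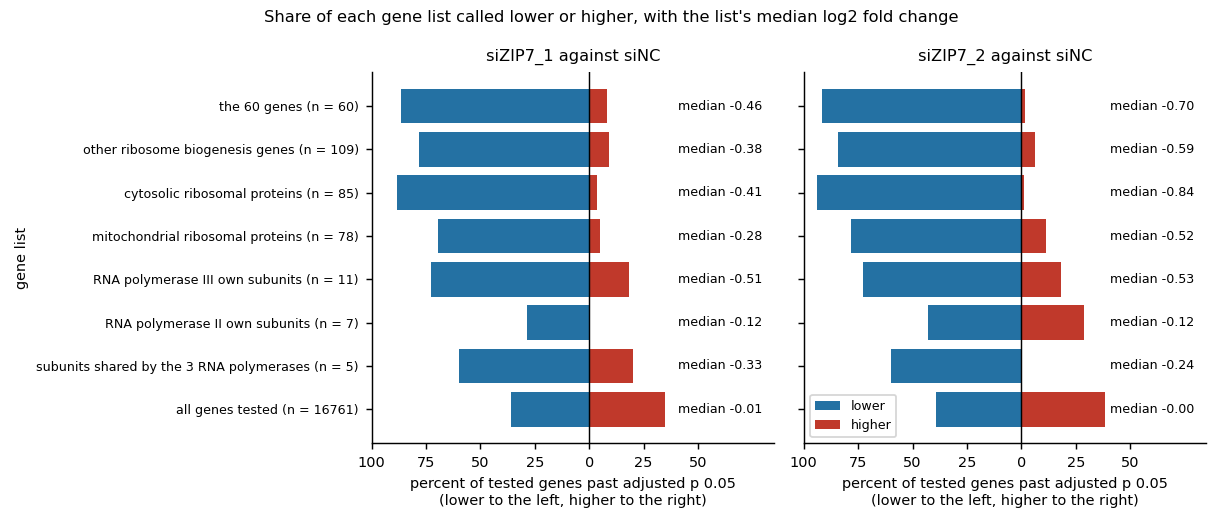
Percent of the tested genes of each list past an adjusted p of 0.05, lower to the left and higher to the right, for siZIP7_1 and siZIP7_2 against siNC, with each list's median log2 fold change written beside the bars. The 60 genes, the other ribosome biogenesis genes and the cytosolic ribosomal proteins are mostly lower, at medians of -0.38 to -0.84, whereas over all genes lower and higher calls are about equal.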

How the data were processed

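RNA was sequenced as single reads from 9 libraries of MDA-MB-231 cells. The deposited values are counts, 1 whole number for each Ensembl gene and library, that the authors did not normalise. The submitters' processing notes name Trim Galore 0.4.1, FastQC 0.11.2, STAR, HTSeq 0.6.1 and DESeq2 1.16.1; genome build, annotation and strand setting are not given in the sources used here. The counter's summary lines name no gene and were left out: reads on no gene were 7.43% to 11.5% of a library's counted reads and ambiguous reads 2.66% to 2.91%. Reads with several alignments were at 0. GENCODE 29 (GRCh38) held 58275 of the 58395 identifiers and gave symbols, positions and exonic lengths; a level per kb is CPM over the union exonic length. Tests used edgeR 4.0.16 under R 4.3.3 (TMM, its low-count filter, quasi-likelihood test, Benjamini-Hochberg at 0.05) in one fit of 3 groups with 6 residual degrees of freedom. A standard error (SE) is the log2 fold change over the square root of F. The biological coefficient of variation was 4.5%. Chi-squared per gene was 2.49 to 6.54 between libraries of a group, more than counting error alone would give. These values do not tell whether the libraries came from separate cultures, or whether a library was sequenced again in another run. The fit was tested on simulated data with known changes. The members and lists were chosen with earlier results of these data known. Every member is accounted for; values in every library are given for a set fixed by role, for the lowest and highest mean change in each step, for members called higher or in opposite directions, and for the 5 largest differences between the siRNAs in each direction. Alternatives were DESeq2 1.42.0, other scalings and filters, the replicate number as a block, fits of 2 groups, a test against a 1.5-fold change and each library left out.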

Additional observations from a re-analysis of the deposited data

Results flagged for a closer look

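WDR3, IMP3 and UTP3 were called higher with siZIP7_1 and lower with siZIP7_2, and edgeR's test of the difference between the siRNAs was past the threshold for each. The log2 difference, siZIP7_2 against siZIP7_1, was -1.69 for WDR3, -0.87 for IMP3 and -0.40 for UTP3, with no overlap between the 3 libraries of one siRNA and the 3 of the other. Reads counted on no gene, which enter no comparison, had a mean share of 10.8% in the siZIP7_2 libraries (9.99% to 11.5%) against 7.43% to 8.28% in the siNC libraries. The siZIP7_1 libraries, at a mean of 8.95% (7.8% to 9.62%), overlapped siNC.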

How the results depend on the processing

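Counts of lower and higher genes stayed within 1.5 times their reported values, and medians within the spread between libraries, except as follows. Tested against a 1.5-fold change, 22 genes were lower and 1 higher with siZIP7_1, 32 and 0 with siZIP7_2, and 5 and 1 between the siRNAs, where fewer genes pass by construction. Upper-quartile scaling gave medians of -0.59 for siZIP7_2 and -0.16 between the siRNAs, and moved the median of all genes to 0.10 with siZIP7_2; total counts gave -0.37 for siZIP7_1, and at least 10 counts in every library gave -0.62 for siZIP7_2; the cause was not tested. Between the siRNAs, 33 genes were lower and 16 higher with upper-quartile scaling. The replicate numbers did not pair the libraries (mean correlation of deviations 0.0115 for the same number over 9 pairs, -0.00575 for different numbers over 18), and with the replicate number as a block the counts of lower and higher genes were 52 and 5, 55 and 1, and 37 and 11. Calls of HEATR1, RRN3 and POLR1D with siZIP7_2 and of POLR1A, RRP12, LAS1L and DDX52 between the siRNAs were the ones most often lost.

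Values that changed sign were near 0 and none passed the test. With siZIP7_2 against siNC, DDX52 was at 0.0053 (DESeq2), 0.020 (its size factors in edgeR), 0.094 (upper quartile), 0.020 (total counts) and 0.063 (10 counts), UBTF at 0.0054 (size factors), 0.080 (upper quartile), 0.0044 (total counts) and 0.047 (10 counts), and NOP10 at 0.00018 (upper quartile). UTP6 with siZIP7_1 was at 0.017 (total counts). Between the siRNAs, in the order DESeq2, size factors, upper quartile, 10 counts and 2 groups alone, PES1 was at 0.0033, 0.019, 0.064, 0.035 and 0.0048, DDX21 at 0.010, 0.026, 0.072, 0.043 and 0.012, and POLR1C at 0.012, 0.027, 0.072, 0.043 and 0.013. POLR1B was at 0.033 (upper quartile) and 0.0038 (10 counts), and MRTO4 at -0.030 (total counts) and -0.022 (no filter). With 1 library left out in turn, the lowest and highest values were -0.0374 and 0.0578 for EBNA1BP2 with siZIP7_1, -0.0689 and 0.037 for DDX52 and -0.0476 and 0.00796 for UBTF with siZIP7_2, and, between the siRNAs, -0.0156 and 0.0739 for MRTO4, -0.0402 and 0.0196 for PES1, -0.0735 and 0.0576 for DDX21 and -0.0477 and 0.0166 for POLR1C.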
